A study of Mus musculus with 56 samples.

Results

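The genes described here encode 8 potassium channel subunits or partners and 1 sodium channel subunit of the heart: Kcnh2, Kcnip2, Kcnd2, Kcnk3, Kcnq1, Kcna5, Kcnj2, Kcnj11 and Scn4b. They were chosen by symbol, with earlier results of these data known. All 9 were found among the 22864 genes of the table. They passed the filter on low values that 13891 genes passed, a mean of 1 TPM or more. TPM is a transcript's level per exon length, scaled to the same total in each library. The libraries were made from polyadenylated RNA of whole hearts of 9-week-old C57BL/6J female mice under 12 h of light and 12 h of dark. Mice had food by day only (daytime-restricted feeding, DRF) or by night only (nighttime-restricted feeding, NRF, the reference) for 7 days, and hearts were collected every 4 h from ZT0 to ZT24 (ZT, zeitgeber time, counts hours from lights on). With 7 ZTs and both regimens there were 14 groups of 4 libraries, 56 in all. Whether each came from a separate heart is not stated in the sources used here, so p-values measure the spread between these libraries. The question was whether the daily rhythms of these channel transcripts followed the light-dark cycle or the inverted meal.

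Potassium currents bring the cardiac action potential back to rest, and sodium current starts it. Kcnd2 with its partner Kcnip2 (KChIP2) carries a fast transient outward current, Kcna5 an ultrarapid and Kcnh2 (ERG) and Kcnq1 a rapid and a slow delayed rectifier current, while Kcnj2, Kcnj11 and Kcnk3 hold the resting potential, couple it to cell energy and leak potassium. Scn4b is a beta subunit of the sodium channel. Repolarization in mice and humans varies over the day, and several of these genes have been studied as outputs of the cardiac clock.

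Promoter windows of 250 bases before the RefSeq start (GRCm38.p6) were at hand for 6 of the 9 genes, and 3 are shown because they stand for the patterns described later: Kcnh2, whose rhythm moved, Kcnd2, whose rhythm was smaller under DRF, and Kcnj2, for which no rhythm was called. The Kcnh2 window (chr5:24329592-24329841, minus strand) lies at a start inside the longer annotated gene, the Kcnd2 window is chr6:21215096-21215345 (plus strand) and the Kcnj2 window is chr11:111065914-111066163 (plus strand). Capitals mark matches to 4 motifs of clock-related factors.
Kcnh2: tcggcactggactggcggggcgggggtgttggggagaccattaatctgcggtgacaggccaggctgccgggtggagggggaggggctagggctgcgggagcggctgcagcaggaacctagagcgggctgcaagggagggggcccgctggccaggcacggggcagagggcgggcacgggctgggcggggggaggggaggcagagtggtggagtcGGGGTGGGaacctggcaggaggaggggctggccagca
Kcnd2: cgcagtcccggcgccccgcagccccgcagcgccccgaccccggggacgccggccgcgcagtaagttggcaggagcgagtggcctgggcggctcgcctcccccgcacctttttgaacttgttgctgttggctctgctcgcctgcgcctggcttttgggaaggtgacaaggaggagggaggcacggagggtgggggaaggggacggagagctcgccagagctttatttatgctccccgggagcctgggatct
Kcnj2: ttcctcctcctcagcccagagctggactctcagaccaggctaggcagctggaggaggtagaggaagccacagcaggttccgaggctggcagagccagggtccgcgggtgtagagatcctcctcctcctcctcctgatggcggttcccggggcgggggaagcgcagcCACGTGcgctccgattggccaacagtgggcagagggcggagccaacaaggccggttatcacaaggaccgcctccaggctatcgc
The motifs were searched on both strands: the E-box CACGTG bound by the CLOCK-BMAL1 complex, the D-box TTANGTAA (TTACNTAA on the other strand) of PAR bZIP factors, the half-site AGGTCA, read on the other strand as TGACCT, of ROR and REV-ERB receptors, and a CACCC box of Kruppel-like factors written as CCCACCCC (GGGGTGGG). An E-box was found in 1 of the 6 windows, that of Kcnj2, 84 to 79 bases before the start, and in 6.02% of 32851 windows of the same length. The CACCC box was found in Kcnh2, 37 to 30 bases before the start, and in Kcna5, against 8.52% of all windows. No D-box and no half-site was found in the 6 windows, against 2.06% and 14.02% of all windows. A match is only a match of letters, and other starts and distant elements were not searched.

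Libraries held between 29353885 and 53079504 reads assigned to genes. Cardiomyocyte markers were present throughout, their summed level ranging from 28713 to 44024 TPM. Each library was compared with the 14 group means over 1100 strongly rhythmic genes. By this measure 54 of 56 libraries were nearest to their own regimen and clock time. The other 2 lay nearest to each other's groups: the library labelled DRF ZT4 replicate 1 differed from its own group by 0.35 (root mean square, log2) and from NRF ZT8 by 0.17, and the library labelled NRF ZT8 replicate 1 differed from its own group by 0.34 and from DRF ZT4 by 0.17. Both were kept as labelled, and the counts of the 9 genes called in each regimen, between regimens, at single ZTs and between ZT24 and ZT0 are also given without them. Counts of combinations of calls, of the other channel lists and of markers are not given without these 2 libraries. Mitochondrially encoded genes took 20.4 ± 1.57% of reads under NRF and 21.7 ± 1.46% under DRF (SD, n = 28 each).

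**Figure D1:**
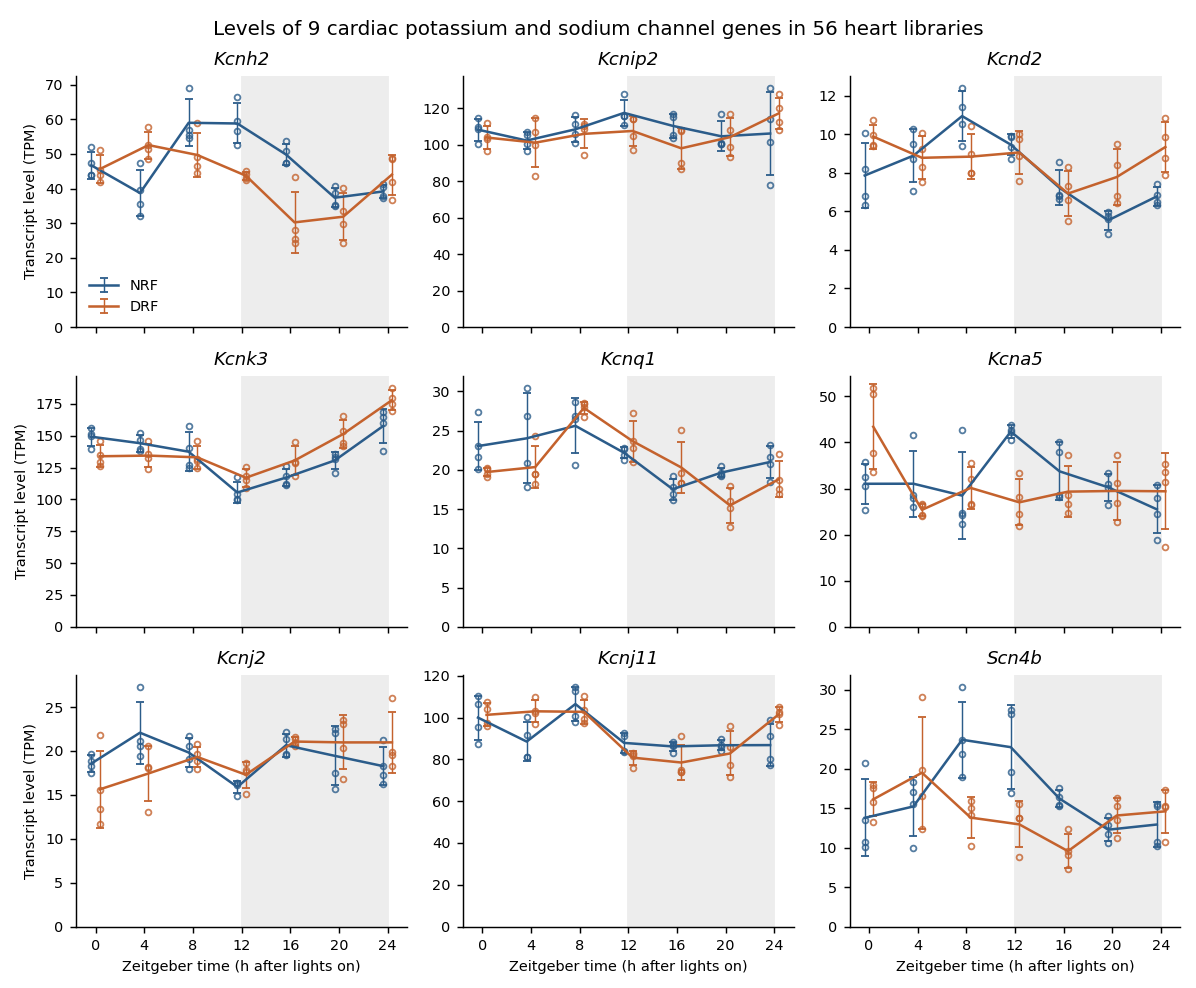
Levels of the 9 channel genes (TPM, from 0) against zeitgeber time in 56 libraries; open circles are libraries, lines and bars are means and SD of 4 libraries, blue for NRF and orange for DRF, with the dark phase shaded. Kcnh2 and Scn4b are highest at ZT8 to ZT12 under NRF and at ZT4 under DRF, and Kcnip2 stays between 77.6 and 131 TPM throughout.

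Levels per transcript length differed widely among the genes. Over the 56 libraries Kcnk3 averaged 137 TPM (SD 19.7), Kcnip2 107 (SD 10.3), Kcnj11 92.4 (SD 11.2), Kcnh2 44.8 (SD 9.75), Kcna5 31.2 (SD 7.44), Kcnq1 21.4 (SD 3.93), Kcnj2 19.1 (SD 2.94), Scn4b 15.5 (SD 5.00) and Kcnd2 8.38 (SD 1.70). Kcnq1 was above Kcnj2 in 36 of 56 libraries, so this pair was not separated by its spread. Kcnj11 was above Kcnh2 in 56 of 56 libraries. Mean reads ran from 734 per library for Kcnd2, a counting error of 3.69%, to 9287 for Kcnk3. Exons of Kcnk3 share 229 bases with Gm9899 on the other strand and those of Kcnq1 share 121 bases with Kcnq1ot1. Reads there cannot be assigned if strand was not used.

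A 24-h curve was called for 5 of the 9 genes under NRF, where 37.2% of all genes tested were called, and for 5 under DRF, where 32.3% were called. Kcnh2, Kcnk3, Kcnq1 and Scn4b were rhythmic under both regimens (4 of 9, against 17.6% of all genes), Kcnd2 was called under NRF and Kcnj11 under DRF. Kcnip2, Kcna5 and Kcnj2 were called under neither (48.1% of all genes). Without the 2 libraries that lay near another group, 6 were called under NRF, with Kcna5 added, where 42.8% of all genes were called. The DRF count stayed at 5, where 4169 of the 13891 genes tested were called, against 4489 with all libraries. A different rhythm between the regimens, by the interaction of regimen with the curve, was called for 5 genes (Kcnh2, Scn4b, Kcnd2, Kcnj11 and Kcnq1) against 27.5% of all genes, and for 6, again with Kcna5, against 30.5% without those 2 libraries. The count was 3 without replicate 2 or 3, without ZT12 or without ZT16, with Kcnj11 and Kcnq1 lost. The shares of all genes under these omissions are not given here, so the drop cannot be read as particular to these genes.

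The meal was inverted by 12 h, and a curve that followed it would be turned upside down. For 6 of the 9 genes (41.3% of all genes) the DRF curve departed from a 12-h inverted NRF curve, namely for each of the 6 genes rhythmic under at least 1 regimen. The count was also 6 (43.4% of all genes) without the 2 libraries, and 5 without replicate 2, where Scn4b had adjusted p = 0.068. Kcnh2, Scn4b, Kcnd2, Kcnj11 and Kcnq1 passed both this test and that of a difference of the curves, as 14.4% of all genes did. Of these Kcnh2, Scn4b and Kcnq1 were rhythmic under both regimens. For Kcnd2 and Kcnj11, with 1 called rhythm each, both tests can pass from that rhythm alone, and they say nothing of its timing between light and meal.

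Kcnh2, the pore subunit of the rapid delayed rectifier channel (ENSMUSG00000038319, chr5:24319589-24351604, minus strand, GRCm38), moved earlier under DRF. Under NRF its 4 libraries were at 54.6, 55.5, 56.8 and 69.1 TPM at ZT8 and at 34.9, 35.2, 38.7 and 40.6 TPM at ZT20. Under DRF they were at 48.4, 51.4, 52.6 and 57.7 TPM at ZT4 and at 24.3, 25.4, 27.9 and 43.3 TPM at ZT16. These were the highest and lowest groups under each regimen and did not overlap. Since they were picked from 7, that is no sign of a rhythm, and it was also so for Kcnip2, which had no called curve. The highest DRF ZT4 library, at 57.7 TPM, was replicate 1, and the lowest NRF ZT8 library, at 54.6 TPM, was replicate 1. Those are the 2 libraries near another group, and the difference of the curves was also called without them. The fitted peak was at ZT10.9 (SE 0.77) under NRF and at ZT5.48 (SE 0.46) under DRF, a shift of -5.45 h (95% interval -7.25 to -3.65). Without ZT4 the shift was -3.92 h and without ZT20 it was -6.45 h. The rhythms had limma adjusted p = 0.000176 and 1.93e-05 and their difference 2.25e-05. The amplitude on log2(TPM + 1) was 0.29 under NRF and 0.42 under DRF, and the interval of their difference, -0.02 to 0.29, held 0.

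Scn4b, the beta-4 subunit of the sodium channel (ENSMUSG00000046480, chr9:45138395-45154152, plus strand), also peaked earlier under DRF. Its libraries under NRF stood at 18.97, 21.8, 23.6 and 30.3 TPM at ZT8 and at 10.6, 11.7, 12.9 and 13.96 TPM at ZT20. Under DRF they stood at 12.4, 16.6, 19.9 and 29.1 TPM at ZT4 and at 7.26, 9.02, 9.53 and 12.4 TPM at ZT16, so the groups did not overlap under NRF and met at 12.4 TPM under DRF. The highest of the ZT4 libraries, at 29.1 TPM, was DRF ZT4 replicate 1, and the lowest ZT8 library, at 18.97 TPM, was NRF ZT8 replicate 1. The peak lay at ZT10.0 (SE 0.69) under NRF and ZT3.30 (SE 0.89) under DRF, a shift of -6.74 h (95% interval -9.00 to -4.47), and of -6.98 h without those 2 libraries. Its rhythms had adjusted p = 6.84e-05 and 0.00707 and their difference 5.64e-05. The DRF rhythm was not called without ZT16 (adjusted p = 0.202) or without replicate 2 (adjusted p = 0.061). Over the 14 group means Kcnh2 and Scn4b had the highest Pearson r among the pairs of these genes, 0.83.

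Kcnd2, the pore subunit Kv4.2 of the fast transient outward channel (ENSMUSG00000060882, chr6:21215503-21729805, plus strand), had a smaller curve under DRF. The NRF libraries were at 9.39, 10.5, 11.4 and 12.4 TPM at ZT8 and at 4.84, 5.59, 5.76 and 5.95 TPM at ZT20, the highest and lowest groups. The highest and lowest DRF groups were ZT0, at 9.40, 9.43, 9.95 and 10.7 TPM, and ZT16, at 5.51, 6.58, 7.30 and 8.31 TPM. Neither pair overlapped, and the ratio of the group means was 1.98 under NRF and 1.43 under DRF. The amplitude was 0.38 (SE 0.05) under NRF and 0.16 (SE 0.05) under DRF, a difference of -0.22 (95% interval -0.36 to -0.08). The NRF rhythm had adjusted p = 1.36e-06, the DRF rhythm 0.0583 and the difference 0.000658. The DRF rhythm was called when the 7 ZT means were tested without a curve (adjusted p = 0.0462), and leaving out ZT4 or ZT12 also brought it past the threshold (adjusted p = 0.0267 and 0.0134).

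Kcnk3, the background channel TASK-1 (ENSMUSG00000049265, chr5:30588170-30625271, plus strand), was the most abundant of the 9 and was rhythmic under both regimens, with adjusted p = 1.31e-06 under NRF and 0.00304 under DRF. NRF libraries lay between 99.8 and 117 TPM at ZT12 and between 138 and 168 TPM at ZT24, and DRF libraries between 109 and 126 TPM at ZT12 and between 169 and 188 TPM at ZT24. Thus the lowest group was ZT12 and the highest ZT24 under both. The peak was at ZT1.70 (SE 0.59) under NRF and ZT23.1 (SE 0.83) under DRF, a shift of -2.59 h (95% interval -4.63 to -0.56). The difference of the curves did not pass (adjusted p = 0.0695), though it did in 5 of 24 alternatives: with median-of-ratios rescaling (adjusted p = 0.0165), with reads scaled to the library total alone (0.0165), on the deposited values (0.028), without ZT24 (0.0164) and with the 7 ZT means tested without a curve (0.00905). The DRF rhythm was not called without ZT12 or without ZT24 (adjusted p = 0.0659 and 0.0566).

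Kcnq1, the pore subunit of the slow delayed rectifier channel (ENSMUSG00000009545, chr7:143106362-143427042, plus strand), moved later, where the fitted peaks of the other 3 genes rhythmic under both regimens were earlier under DRF. At ZT8 the NRF libraries were at 20.5, 26.4, 26.8 and 28.6 TPM and the DRF libraries at 26.8, 27.9, 28.3 and 28.5 TPM. The lowest of these NRF libraries, at 20.5 TPM, was replicate 1, 1 of the 2 libraries near another group. The other, DRF ZT4 replicate 1, was at 24.3 TPM, against 18.2 to 19.5 TPM in the rest of its group. The lowest NRF group was ZT16, at 16.1, 16.9, 17.8 and 19.2 TPM, and the lowest DRF group ZT20, at 12.7, 15.1, 16.1 and 17.97 TPM. So the peak group was shared and the trough differed. The fitted peaks were ZT5.88 (SE 0.76) and ZT8.68 (SE 0.56), a shift of 2.80 h (95% interval 0.92 to 4.69), and of 1.75 h without ZT16. The rhythms had adjusted p = 0.00296 under NRF and 3.80e-05 under DRF and their difference 0.0244. That difference was also called without the 2 libraries near another group. The NRF rhythm was not called without replicate 2 or 4 or without ZT16 (adjusted p = 0.0823, 0.0696 and 0.0712). The difference of the curves was lost in 7 of 24 alternatives, among them without replicate 2, 3 or 4 (adjusted p = 0.0517, 0.119 and 0.104).

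Kcnj11, the pore subunit Kir6.2 of the ATP-sensitive channel (ENSMUSG00000096146, chr7:46093953-46100764, minus strand), had a larger curve under DRF. DRF libraries were at 95.8 to 110 TPM in the groups from ZT0 to ZT8, at 75.8, 81.5, 82.7 and 83.2 TPM at ZT12 and at 73.7, 74.1, 75.1 and 91.0 TPM at ZT16. NRF groups averaged 86.2 to 106 TPM. The amplitude was 0.09 (SE 0.04) under NRF and 0.24 (SE 0.04) under DRF, a difference of 0.15 (95% interval 0.05 to 0.25), with adjusted p = 0.161 and 3.88e-06 for the rhythms. Without ZT4 the NRF rhythm was called (adjusted p = 0.0186) and the difference of the curves was not (0.0515). The difference of the curves had adjusted p = 0.0129 and was lost in 7 of 24 alternatives, without replicate 2 or 3 (adjusted p = 0.0831 and 0.0963) among them. The interval of its peak shift, -5.28 to 0.39 h, held 0, and without ZT8 the shift turned to 1.56 h, while without ZT0 it was -3.94 h.

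Kcnip2, Kcnj2 and Kcna5 were the genes without a called curve. Kcnip2 (chr19:45791839-45816061, minus strand) had group means of 98.0 to 117 TPM and amplitudes of 0.07 (SE 0.04) under NRF and 0.04 (SE 0.04) under DRF. Kcnj2, which encodes Kir2.1 of the inward rectifier (chr11:111066164-111076821, plus strand), had group means of 15.6 to 22.1 TPM and amplitudes of 0.06 (SE 0.06) and 0.11 (SE 0.06). Their adjusted p for a rhythm was 0.292 and 0.62 under NRF and 0.72 and 0.364 under DRF, and for a difference of the curves 0.296 and 0.307. Kcna5, which encodes Kv1.5 (chr6:126532551-126535412, minus strand), had an NRF rhythm near the threshold (adjusted p = 0.0612), with an amplitude of 0.20 (SE 0.08). That rhythm was called in 10 of 24 alternatives, with adjusted p from 0.00494 without ZT8 to 0.0484 without replicate 1, and 0.039 without the 2 libraries near another group. Its difference of the curves (adjusted p = 0.0657) was called in 6 of 24. Its NRF ZT12 libraries were at 40.6, 42.3, 42.6 and 43.8 TPM and its DRF ZT0 libraries at 33.6, 37.6, 50.5 and 51.9 TPM, against 24.1 to 26.6 TPM at DRF ZT4. Testing the 7 ZT means without a curve called Kcna5 (adjusted p = 0.0452), Kcnj2 and Kcnj11 under NRF as well, 8 of the 9 genes, where 25.8% of all genes were called.

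**Figure D2:**
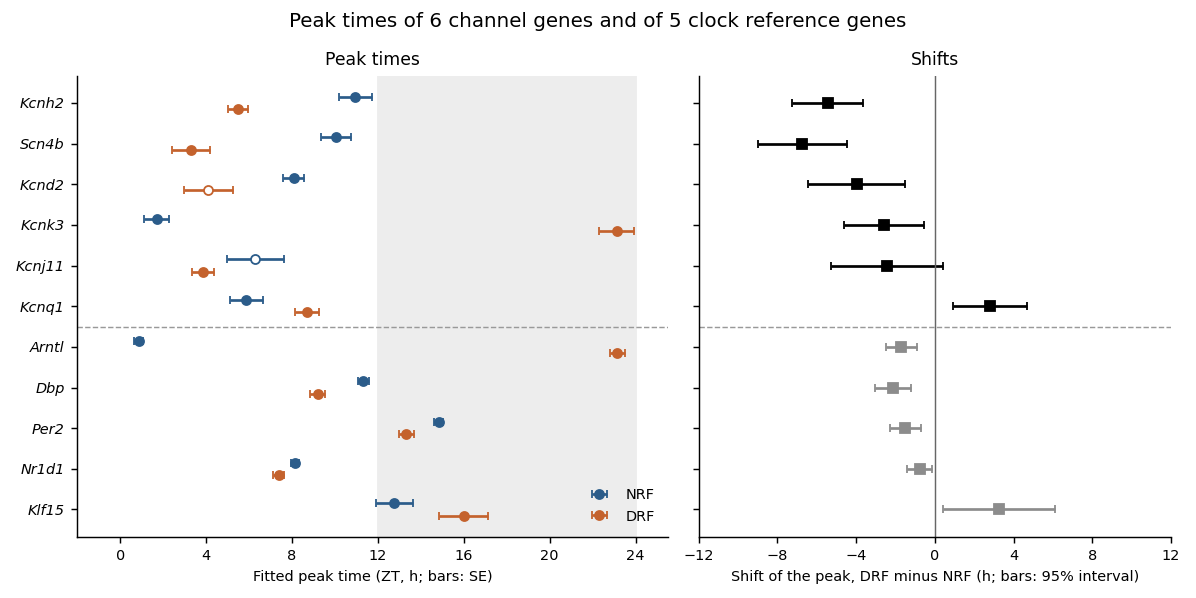
Fitted peak times (left, ZT in h, bars SE, blue NRF and orange DRF, open where no rhythm was called) and shifts of the peak (right, DRF minus NRF in h, bars 95% intervals) of 6 channel genes above the dashed line and 5 clock reference genes below it. Kcnh2 and Scn4b lie at -5.45 and -6.74 h, Kcnq1 and Klf15 to the right of 0, and no interval reaches -12 or 12 h.

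The clock reference genes give the scale of these shifts. Under DRF the peak moved by -1.71 h (SE 0.40) for Arntl (Bmal1), by -2.14 h (SE 0.45) for Dbp, by -1.50 h (SE 0.39) for Per2 and by -0.78 h (SE 0.33) for Nr1d1 (Rev-erb alpha). For Klf15, a Kruppel-like factor, the fitted peaks lay 3.24 h apart (SE 1.42), later under DRF, and the difference of the curves did not pass (adjusted p = 0.112). Over the 2443 genes rhythmic under both regimens the median absolute shift was 3.81 h and 65.4% peaked earlier under DRF. Kcnk3 and Kcnq1 were below that median in absolute shift, and Kcnh2 and Scn4b above it.

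Differences at single ZTs were called in 9 of 63 combinations of gene and ZT, 3 higher and 6 lower under DRF, which is 14.3% against 7.21% of the combinations of all genes. There were 10 without the 2 libraries near another group, with Scn4b at ZT8 added, where 9.17% of the combinations of all genes were called. The count was 1 without replicate 3 (2.09% of all) and 3 without replicate 2 (3.18%). It was 14 with median-of-ratios rescaling, 9 higher and 5 lower (4.58% and 4.64% of all), and 14 with reads scaled to the library total alone, 8 higher and 6 lower (3.12% and 6.19%). The rate differed by ZT. At ZT0, ZT4 and ZT8, where 11.4%, 0.446% and 0.353% of all genes were called, none of the 9 was, and without the 2 libraries the shares at ZT4 and ZT8 were 3.46% and 3.59%. With median-of-ratios rescaling Kcna5 and Kcnd2 were called higher under DRF at ZT0 (14.1% of all genes called) and Kcnh2 at ZT4 (1.66%). With reads scaled to the library total alone Kcnd2 was called higher at ZT0 (13.8%) and Kcnh2 at ZT4 (1.33%). At ZT12 (7.67% of all genes, 6.39% lower) Kcnh2, Kcna5 and Scn4b were lower under DRF, and at ZT16 (6.87%, 6.23% lower) Kcnh2 and Scn4b were lower. At ZT20 (14.8%, 3.35% higher and 11.5% lower) Kcnd2 and Kcnk3 were higher and Kcnq1 lower, and at ZT24 (8.86%, 4.4% higher) Kcnd2 was higher. The lean of all genes to lower levels at ZT12, ZT16 and ZT20 also depended on the scaling. With median-of-ratios rescaling 4.5% were higher and 6.12% lower at ZT12, 2.09% higher and 2.31% lower at ZT16, and 9.24% higher and 7.98% lower at ZT20. Without the mitochondrially encoded genes the lean was kept at ZT12 (1.83% higher and 5.61% lower) and ZT16 (0.859% and 7.92%) and turned at ZT20 (8.36% higher and 4.3% lower), and under either scaling the call of Kcnq1 at ZT20 was lost. At 1 or more ZTs 6 of the 9 genes were called, against 32.8% of all genes. The 4 DRF and 4 NRF libraries did not overlap in 13 of the 63 combinations, 20.6% against 13.2% over all genes.

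Of the called differences the largest were those of Scn4b at ZT12 and ZT16 and of Kcnh2 at ZT16. Scn4b stood at 16.9, 19.6, 27.0 and 27.5 TPM under NRF and at 8.76, 13.7, 13.8 and 15.5 TPM under DRF at ZT12, a log2 difference of -0.77 (SE 0.21, adjusted p = 0.0169), and at ZT16 the difference was -0.73 (adjusted p = 0.0269). Kcnh2 at ZT16 was at 47.4, 47.4, 50.8 and 53.6 TPM under NRF, all above the 4 DRF libraries, a log2 difference of -0.74 (SE 0.12, adjusted p = 0.000369). It was called in each of 25 alternatives, among them each single library of the 2 groups left out. The other 8 combinations were called in 11 to 19 of 25, and each was lost without 1 or more single libraries of its groups. At ZT12 the Kcnh2 difference was -0.41 (adjusted p = 0.0318). Its call was lost without DRF replicate 1, 2 or 3 (adjusted p = 0.0683, 0.0618 and 0.0773), where the difference was -0.41, -0.40 and -0.42 and so nearly as with all libraries. It was also lost without NRF replicate 1 or 3 (0.119 and 0.0854), where it was -0.36 and -0.41. The call of Scn4b at ZT12 was lost without DRF replicate 3 (0.121) or NRF replicate 1 or 3 (0.075 and 0.0836), where the difference was -0.60, -0.67 and -0.68. The Kcna5 difference at ZT12 was -0.65 (SE 0.19, adjusted p = 0.0258). With atrial and adipocyte marker scores in the fit Kcna5 at ZT12 was at -0.59 (adjusted p = 0.0534) and Kcnq1 at ZT20 at -0.33 (adjusted p = 0.0502).

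Kcnd2 was higher under DRF at ZT20, with a log2 difference of 0.41 (SE 0.12, adjusted p = 0.0141), and at ZT24, with 0.40 (adjusted p = 0.0248). At ZT24 its libraries were at 7.90, 8.76, 9.88 and 10.8 TPM under DRF and at 6.35, 6.49, 6.83 and 7.43 TPM under NRF, without overlap. At ZT20 Kcnk3 differed by 0.21 (SE 0.07, adjusted p = 0.0371) and Kcnq1 by -0.34 (SE 0.11, adjusted p = 0.0385). Both were called in only part of the alternatives, Kcnk3 in 14 and Kcnq1 in 11 of 25.

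**Figure D3:**
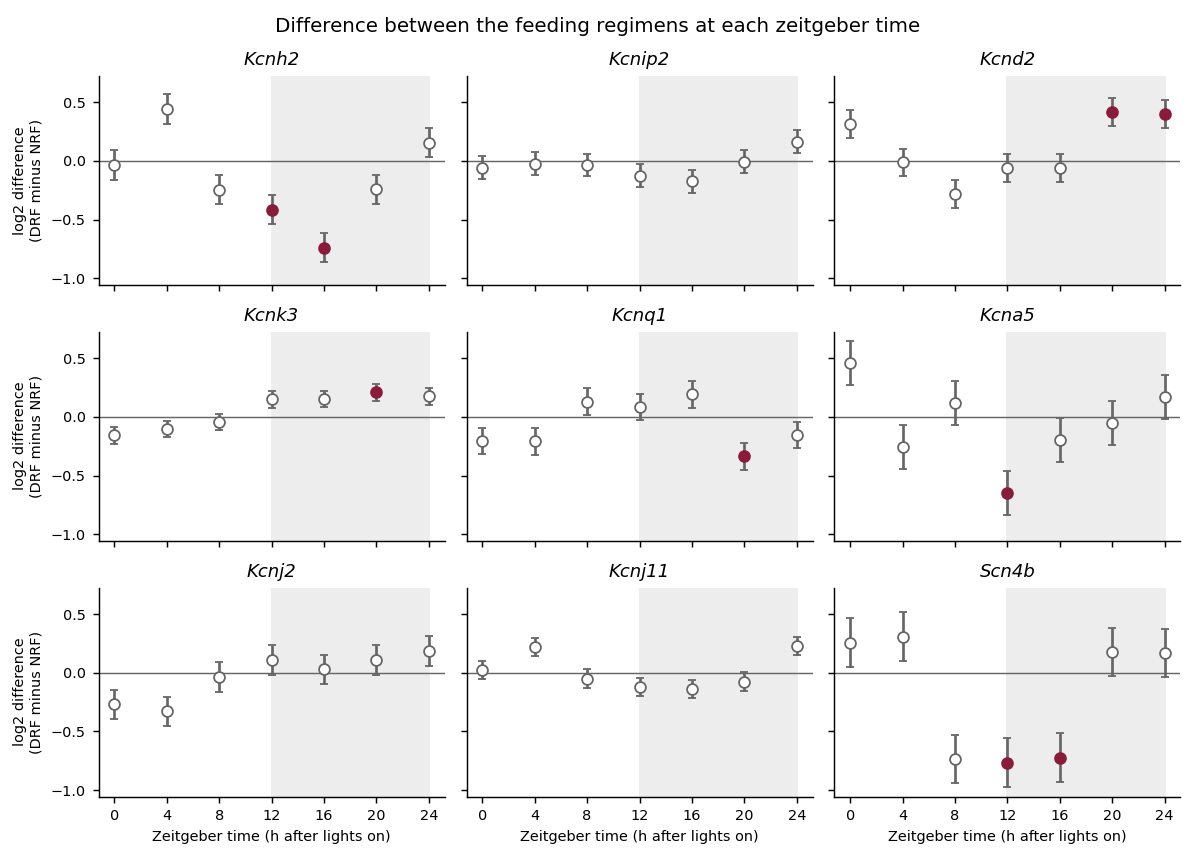
Log2 difference between DRF and NRF (y axis, DRF minus NRF of log2(TPM + 1), bars SE) at each zeitgeber time (x axis, h) for the 9 channel genes, filled where the limma adjusted p was under 0.05, with the dark phase shaded. The 9 filled points lie between ZT12 and ZT24, the lowest of them Scn4b at ZT12 and ZT16 and Kcnh2 at ZT16.

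Mean levels over the day were compared in a fit with a mean per ZT and the interaction of regimen with the curve. They are thus adjusted for the curve and are not plain differences of means. The level was lower under DRF for Kcnh2, by a log2 difference of -0.20 (SE 0.05, adjusted p = 0.00294), and for Scn4b, by -0.28 (SE 0.08, adjusted p = 0.0106). That makes 2 of 9, both lower, where 26.0% of all genes were called, 24.3% lower and 1.67% higher under DRF, and 2 of 9 (29.6% of all genes) without the 2 libraries near another group. The median over all genes was -0.05. The lean of all genes to lower levels depended on the scaling. With median-of-ratios rescaling 5.82% of all genes were higher and 7.34% lower, and without the mitochondrially encoded genes 2.53% were higher and 9.02% lower. Both calls were lost without replicate 2, where 11.6% of all genes were called. There the difference was -0.15 for Kcnh2 (adjusted p = 0.0781) and -0.28, as with all libraries, for Scn4b (0.0682). Both were lost without ZT8 too, at -0.14 (0.0948) and -0.21 (0.136). The call of Scn4b was also lost without replicate 3 (8.48% of all genes called), where its difference was -0.14 (0.288), and without ZT16, where it was -0.24 (0.0935). Kcnk3 differed by 0.06 (adjusted p = 0.109), and was called higher under DRF in 4 of 23 alternatives, which makes 3 of 9 genes, 1 of them higher. They were median-of-ratios rescaling (0.13, adjusted p = 0.00137), reads scaled to the library total alone (0.09, adjusted p = 0.0105), TPM without the mitochondrially encoded genes (0.10, adjusted p = 0.024) and the fit without ZT0 (0.09, adjusted p = 0.0297). In these bulk libraries fewer cells of a type and less RNA per cell cannot be told apart.

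Markers of other cells moved with the regimen as well. Of the 6 endothelial markers 6 were lower in mean level under DRF, as were 4 of 6 fibroblast, 4 of 6 macrophage and 3 of 6 smooth muscle and pericyte markers. Over all genes 24.3% were lower. Of 8 cardiomyocyte markers 1 was higher and 1 lower. Among those tested, 1 of 3 conduction system markers was lower and 1 of 2 neuron and Schwann cell markers higher. These counts were made on TPM only, and the share of all genes that were lower depended on the scaling. Summed endothelial markers ranged from 534 to 888 TPM under NRF and from 470 to 782 TPM under DRF. The atrial list ranged from 163 to 4634 TPM (median 683) under NRF and from 128 to 5688 TPM (median 1911) under DRF, and Bmp10 alone of its 7 genes was called, higher under DRF. Adipocyte markers summed to 13.4 to 196 TPM under NRF and 4.76 to 237 TPM under DRF, and red blood cell markers to 1682 to 42917 and 1872 to 67273 TPM. The part of endothelial, fibroblast, macrophage and smooth muscle cells in the lower means was not tested. With atrial and adipocyte scores in the fit Kcnh2 was at -0.24 (adjusted p = 0.000851) and Scn4b at -0.25 (adjusted p = 0.0263), and the 5 genes with a different rhythm remained 5, with the same 5 names. Without mitochondrially encoded genes in the scaling the mean differences were -0.16 (adjusted p = 0.0239) and -0.24 (adjusted p = 0.0401).

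ZT24 repeats the clock time of ZT0. Of the 9 genes 1 differed between them under DRF, Kcnk3, and 0 under NRF, against 0.425% (0.23% higher at ZT24) and 0.0576% of all genes (1695 and 1268 genes at an unadjusted p under 0.05), and the counts were the same without the 2 libraries near another group. Kcnk3 was at 126, 129, 135 and 146 TPM at DRF ZT0 and at 169, 175, 180 and 188 TPM at DRF ZT24, a log2 difference of 0.41 (SE 0.07, adjusted p = 0.00288), lost without replicate 3 or 4 (adjusted p = 0.0911 and 0.0617). Under NRF the difference was 0.08 (adjusted p = 0.742), and a test of the difference between the regimens did not pass (0.33, unadjusted p = 0.00176, adjusted p = 0.54). By that limma test 0 of all genes passed and 811 had an unadjusted p under 0.05.

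Other channel genes were examined as lists set by function, chosen with earlier results of these data known. Of these, 65 genes were in the table and 39 passed the filter. The shares over all genes to set beside their counts are 37.2% for an NRF rhythm, 32.3% for a DRF rhythm and 27.5% for a different rhythm. Of 20 other potassium channel genes tested, 8 were rhythmic under NRF, 12 under DRF and 9 had a different rhythm. Kcnj5, which encodes Kir3.4 of the acetylcholine-gated channel, had an amplitude of 0.12 under NRF and 0.44 under DRF, with an NRF rhythm that was not called (adjusted p = 0.343). Kcnv2, a silent modifier subunit, had 0.02 and 0.43 with adjusted p = 0.897 under NRF and 0.000132 under DRF. Kcna1 (a Shaker type channel) and Kcnj12 (Kir2.2 of the inward rectifier) were rhythmic under both and peaked earlier under DRF, with shifts of -3.45 and -5.91 h. Kcnk13 had amplitudes of 0.06 and 0.25. Of 8 partners of potassium channels, 5 were rhythmic under NRF, 1 under DRF and 2 had a different rhythm, a share near that over all genes. These were Kcne1, the beta subunit of Kcnq1, and Kcnab2. Kcne1 had an amplitude of 0.61 under NRF and 0.20 under DRF (adjusted p = 0.000202 for the difference), where Kcnq1 itself had 0.22 and 0.31. Its NRF group means ran from 4.52 TPM at ZT16 to 12.6 TPM at ZT4 and its DRF group means from 5.28 to 8.62 TPM.

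Of 9 other sodium channel genes tested, 6 were rhythmic under NRF, 4 under DRF and 6 had a different rhythm. Scn4a, the skeletal muscle pore subunit, shifted by -5.40 h (SE 0.81), from ZT8.11 to ZT2.70. It moved in the same direction as the beta subunit Scn4b. Scn7a, a sodium sensor, moved the other way, by 7.30 h (SE 1.16), and Fgf13, a channel modulator, had an amplitude of 0.29 under NRF and 0.06 under DRF. Scn3b, another beta subunit, and Gpd1l, a trafficking partner, had a different rhythm with adjusted p = 0.0415 and 0.0466. Of the 2 pacemaker channel genes tested Hcn4 had a different rhythm, with peaks at ZT20.0 and ZT6.32, a shift of 10.3 h (SE 1.15). The test of its departure from a 12-h inversion did not pass (adjusted p = 0.443). Over the 39 genes of these 4 lists 18 had a different rhythm, 46.2% against 27.5% of all genes, and 11 were lower in mean level under DRF and 1 higher, where 24.3% of all genes were lower and 1.67% higher. The counts were 4 lower and 4 higher with median-of-ratios rescaling (7.34% and 5.82% of all genes), 7 lower and 3 higher with reads scaled to the library total alone (15.4% and 2.74%), and 4 lower and 1 higher without the mitochondrially encoded genes (9.02% and 2.53%). Without replicate 2 they were 3 lower and 2 higher (10.3% and 1.31%). Leaving out replicate 3 gave 3 lower and 1 higher (7.88% and 0.605%).

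**Figure D4:**
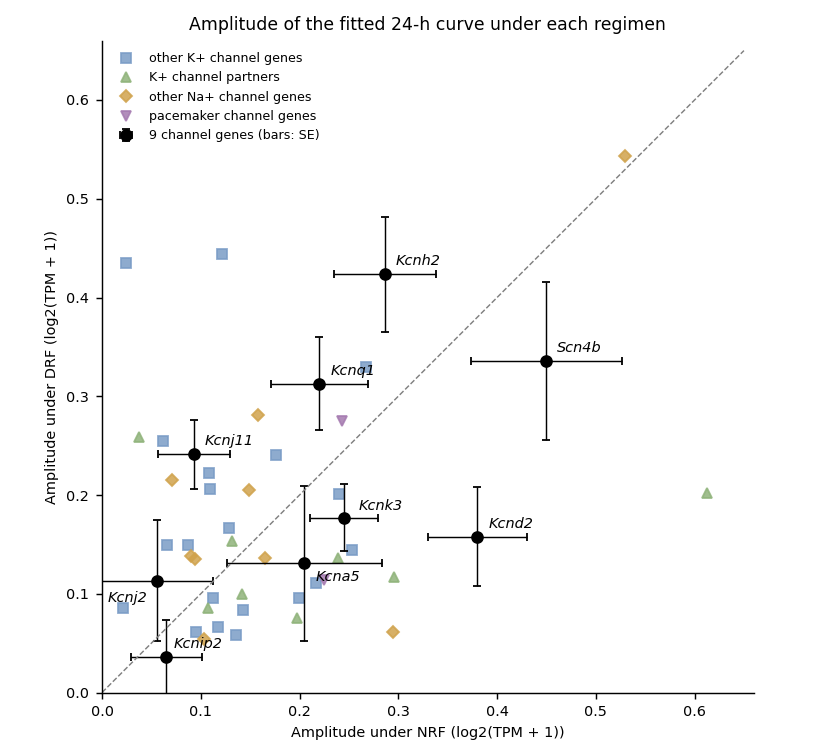
Amplitude of the fitted 24-h curve under DRF (y axis) against that under NRF (x axis), both on log2(TPM + 1), for the 9 channel genes (black, bars SE) and for 39 other channel genes and partners (colored by list), with the line of equal amplitude dashed. Kcnd2 lies below the line at 0.38 and 0.16, Kcnj11 above it at 0.09 and 0.24, and the rightmost partner, Kcne1, lies at 0.61 and 0.20.

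By likeness over the 14 group means (Pearson r, a description over points that share libraries), the genes closest to Kcnh2 were Phldb1, Ldb1 and Col4a5 (0.97, 0.96 and 0.95). Those closest to Scn4b were Pex11g, Cdk18 and Kmt2b (0.94, 0.93 and 0.92), to Kcnd2 Scin, Epm2a and Rad51d (0.95, 0.94 and 0.94), and to Kcnq1 Camk2g, Il13ra1 and Gm8822 (0.93, 0.91 and 0.90). Kcnk3 was closest to Alpk2, Mcu and Cavin4 (0.91, 0.91 and 0.90) and Kcnj11 to Usp20, Jade1 and Kazald1 (0.91, 0.89 and 0.89).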

How the data were processed

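Per the labels, polyadenylated RNA of whole hearts was sequenced as paired reads, and the submitters' processing notes name HISAT2 2.0.5, featureCounts 1.5.0-p3 and mm10. The annotation, any use of strand and one heart per library are not given in the sources used here. The values the authors deposited are named TPM, but are no linear TPM: each was found to be a library constant times log2(1 + a second constant times reads), divided by exon length. Both constants were fitted per library, with GENCODE M21 exon lengths, or, for 831 genes, 796 of them on chromosomes 17 to 19, lengths found from the values. Whole reads resulted for 99.9993% of 1278125 values, within 0.1 reads, and linear TPM was computed from them. Lengths of 2 genes were not resolved. No pair of libraries was identical, and 29353885 to 53079504 reads per library set the counting error.

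The 13891 genes whose mean reached 1 TPM were tested on log2(TPM + 1) with limma 3.58.1 (R 4.3.3, moderated variances with a trend, Benjamini-Hochberg adjustment over all these genes, adjusted p under 0.05). Each rhythm test fitted a 24-h cosine and sine to the 28 libraries of its regimen alone. All 56 libraries of 14 groups were fitted together for the rest. These were peaks, amplitudes, the interaction of the curve with regimen, the departure from a 12-h inversion, the regimen mean, and contrasts at single ZTs. Standard errors of peaks and amplitudes came from the delta method. Scripts were tested on simulated data. Named are the 9 genes, the other channel genes with a different rhythm (at most 6 a list, by amplitude), 5 clock genes and the 3 genes most like each rhythmic member. Some genes of the channel lists that this rule selects are not reported here. The members and lists were chosen with earlier results of these data known. Replicate numbers only number the libraries. Alternatives changed scaling, filter, pseudocount, variance trend, marker covariates, replicates and ZTs. Leaving out the 2 libraries nearest another group, and the test of ZT24 against ZT0 between regimens, were chosen after seeing the data. Python 3.11.15 with numpy 2.4.6, pandas 2.3.3, scipy 1.17.1 and matplotlib 3.10.9 was used for the rest.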

Additional observations from a re-analysis of the deposited data

Results flagged for a closer look

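In 8 of 126 groups of 4 libraries, 1 library of a channel gene lay apart from the other 3 by Dixon's test, which chance gives in about 1 of 20 groups. Kcnh2 was at 69.1 TPM in NRF ZT8 replicate 4, against 54.6 to 56.8 TPM in the others. Kcna5 stood apart in the libraries labelled replicate 4 at NRF ZT4 (41.7 TPM, others 26.1 to 28.5) and at NRF ZT8 (42.6 TPM, others 22.3 to 24.7). Kcnip2 was at 117 TPM in NRF ZT20 replicate 1 (others 100.1 to 101 TPM) and at 94.0 TPM in DRF ZT8 replicate 3 (others 108 to 111 TPM). Kcnd2 was at 8.57 TPM in NRF ZT16 replicate 2 (others 6.64 to 6.85 TPM), Kcnj2 at 14.9 TPM in NRF ZT12 replicate 4 (others 16.1 to 16.3 TPM) and Kcnj11 at 91.0 TPM in DRF ZT16 replicate 1 (others 73.7 to 75.1 TPM).

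The rhythm differed between the regimens, by the limma interaction of regimen with the 24-h curve, for Kcnh2 (adjusted p = 2.25e-05), Scn4b (adjusted p = 5.64e-05), Kcnd2 (adjusted p = 0.000658), Kcnj11 (adjusted p = 0.0129) and Kcnq1 (adjusted p = 0.0244).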

How the results depend on the processing

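Of 1311 alternatives of 55 values, 1173 kept their direction and side of the threshold, 101 lost and 31 gained a call, 5 peak shifts moved and 1 turned. The shift of Kcnj11 was 1.56 h without ZT8. Genes rhythmic under NRF numbered 8 when the 7 ZT means were tested without a curve (25.8% of all genes), and those with a different rhythm 7 (22.6%). The latter numbered 3 without ZT12, 3 without ZT16 and 3 to 6 with a replicate number left out, where the shares of all genes are not given. Genes with a different mean level numbered 0 without ZT8, 1 without ZT16 and 0 to 2 with a replicate number left out (8.48% to 26.7% of all genes). Differences at single ZTs numbered 14 with median-of-ratios scaling, 14 with reads scaled to the library total alone and 1 to 10 with libraries left out (3 without replicate 2, 1 without replicate 3). Differences of ZT24 from ZT0 numbered 0 to 2 with libraries left out (0 without replicate 3 or 4, and 2, with Kcnj2 added, without DRF ZT0 replicate 1). The causes were not tested. Same-numbered libraries did not deviate together (mean r 0.02 over 364 pairs, -0.01 over 1092 other pairs). With the replicate number as a block the counts were 5 rhythmic under NRF, 5 under DRF, 5 with a different rhythm, 6 departing from inversion, 2 in mean level, 9 at single ZTs and 1 between ZT24 and ZT0, the same as without it. With 4 libraries a group, single-ZT calls near the threshold can be lost without 1 library while the difference stays about as large, as for Kcnh2 at ZT12.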
